A study of Mus musculus with 14 samples.

Results

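The comparison described here sets 3 Alb-Cre livers against 3 wild-type livers, all from mice that carried an interleukin 13 (IL-13) plasmid, and covers all 9711 genes detected in whole-liver RNA. The 6 arrays were chosen by the plasmid and genotype in their labels and are 6 of the 14 arrays of the series. Mice labelled wild type or Alb-Cre+ received a mammalian overexpression plasmid for IL-13 or, as the control, for the green fluorescent protein EGFP, by hydrodynamic delivery, and were killed after 1 week. The other 8 arrays, 4 wild-type and 4 Alb-Cre livers with the EGFP plasmid, gave the genotype comparison without IL-13. By the series title, the Alb-Cre mice carried a floxed IL4Ra gene. The labels do not say whether the wild-type mice carried the floxed allele, and give no age, strain or sex. Nor do they say that every array came from its own mouse, so a p-value reflects only how far these samples scatter, which may be technical.

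IL-13 is a type 2 cytokine that binds a receptor made of IL-13Rα1 and IL-4Rα and activates the Janus kinases and STAT6. In macrophages, fibroblasts and epithelia this pathway is known for alternative activation, collagen deposition and chemokine release, and hepatocytes carry the receptor too. The albumin promoter drives Cre in hepatocytes, with some activity in cholangiocytes, and is not known to be active in macrophages, stellate cells or endothelial cells. The comparison therefore asks what the liver's response to IL-13 looks like when the floxed receptor gene is a target for deletion in cells that express albumin. Il4ra itself was not analysed here, so the deletion was not checked on these arrays. Because whole liver was measured, fewer cells of a type and less RNA per cell cannot be told apart.

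Levels are log2 intensities after background correction and quantile normalization, and every difference is Alb-Cre minus wild type under IL-13 with its standard error (SE) from limma, with n = 3 against 3 arrays. A gene was called when its p, adjusted over all 9711 genes, was under 0.05, and "the EGFP range" is that of the 8 EGFP arrays. Gene lists are counted over their tested members, those detected on at least 3 of the 14 arrays. Between 45% and 51.6% of the probes were detected per array, the mean intensity lay between 283 and 354, and arrays of 1 IL-13 group correlated at 0.980 to 0.990 against 0.952 to 0.965 between the groups.

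The 6 arrays differed in their sex-linked transcripts, and this divides the wild-type group. Xist, the RNA that silences an X chromosome in female cells, was detected on wild-type replicates 1 and 2 and on all 8 EGFP arrays. Eif2s3y, a gene of the Y chromosome, was detected on wild-type replicate 3 and on all 3 Alb-Cre IL-13 arrays. Levels of Xist were 6.38, 5.72 and 4.36 on the wild-type arrays and 4.43, 4.23 and 4.20 on the Alb-Cre arrays, and those of Eif2s3y were 4.16, 4.20 and 6.89 in wild-type and 6.57, 6.62 and 6.32 in Alb-Cre livers. Xist was at least 2.01-fold lower in Alb-Cre livers (adjusted p = 0.0136), while Eif2s3y differed by 1.42 ± 0.47 (adjusted p = 0.0416) and Kdm5d, another Y-linked gene, by 0.43 ± 0.10 (adjusted p = 0.00734). The Eif2s3y call was lost without wild-type replicate 1 or 2, and without each Alb-Cre array in turn, and the Xist call without wild-type replicate 1 or 2. The sex-linked pattern was therefore the same in all 3 Alb-Cre livers and mixed in the wild-type livers. The arrays lay on 2 slides: slide 1 held replicates 1 and 2 of both IL-13 groups, which differ in these transcripts, and slide 2 held replicate 3 of both, which share them. Counts are therefore also given from a fit with Eif2s3y detection as a covariate, which here equals a comparison of the 3 Alb-Cre arrays with wild-type replicate 3 alone. Its p-values take their spread from the other arrays of the 4 groups, so that replicate 3 is assumed to vary like them, and the variation among wild-type livers of its kind was not measured. Where a level is set beside the EGFP range, all 8 EGFP arrays are of the Xist-positive kind. The part of the sex-linked pattern in any other difference was not tested beyond that fit.

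**Figure D1:**
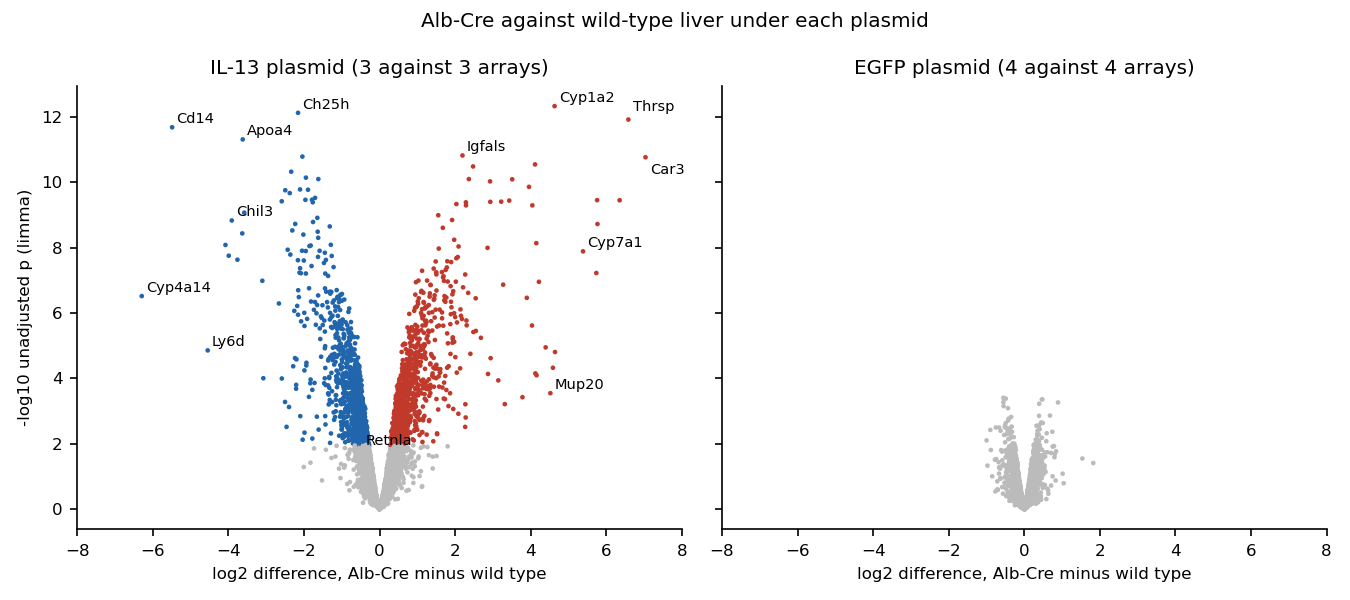
Each point is 1 gene: the horizontal axis gives the log2 difference of Alb-Cre minus wild type, the vertical axis -log10 of limma's unadjusted p, under the IL-13 plasmid (left) and the EGFP plasmid (right). Red and blue mark genes called higher and lower at an adjusted p under 0.05, 2130 under IL-13 and 0 under EGFP, and grey marks the rest.

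Under IL-13 many genes differed between Alb-Cre and wild-type livers. Of the 9711 genes, 2130 (21.9%) were called, 1039 (10.7%) higher and 1091 (11.2%) lower in Alb-Cre livers. At least 2-fold differences were called for 261 (2.69%) higher and 234 (2.41%) lower genes. At an unadjusted p under 0.05 there were 3226 genes (33.2%), and the 3 Alb-Cre values did not overlap the 3 wild-type values for 3207 genes (33%), above them for 1541 (15.9%) and below them for 1666 (17.2%). The volcano plot shows that differences reached 7.04 ± 0.41 for Car3, a cytosolic carbonic anhydrase not detected on any wild-type IL-13 array, on the high side and -6.29 ± 0.73 for Cyp4a14, a fatty acid hydroxylase, on the low side. With the EGFP plasmid the genotype comparison called 0 genes in limma, with 364 (3.75%) at an unadjusted p under 0.05. All EGFP arrays of both genotypes were of the Xist-positive kind. Under IL-13 Eif2s3y was detected on every Alb-Cre array but only on replicate 3 of wild type. The comparisons therefore differ in more than the plasmid. The genotype difference under IL-13 itself differed from that under EGFP for 1277 genes (13.2%), 646 (6.65%) more positive and 631 (6.5%) more negative, and 1232 of the 2130 called genes were among these, a contrast that holds the same IL-13 arrays.

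Part of the calls was also made against wild-type replicate 3 alone. With the Eif2s3y covariate 1257 genes (12.9%) were called, 661 (6.81%) higher and 596 (6.14%) lower, of which 990 were among the 2130. Alb-Cre replicate 2 was the array nearest to wild type for 263 of the 495 genes called at a difference over 1 in size, replicate 1 for 161 and replicate 3 for 71. For 137 genes called higher and 172 called lower, all 3 Alb-Cre arrays lay inside the EGFP range and all 3 wild-type arrays outside it, as did 423 of all genes. The opposite, wild type inside and Alb-Cre outside, held for 39 and 22 called genes and for 87 of all genes. More often both groups lay wholly outside the EGFP range, on the same side or on opposite sides. This held for 245 genes called higher and 289 called lower, and for 1414 of the 9711 genes.

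Most tested genes of fatty acid synthesis were higher in Alb-Cre than in wild-type livers under IL-13. This pathway turns sugar-derived carbon into fat and is driven by the transcription factors Srebf1 and Mlxipl. Of 25 tested genes of the list, 15 (60%) were higher and 0 lower, with a median difference of 1.31 (1.06 within slide 1 and 1.33 within slide 2) or 1.09 with 2 genes not detected in 1 group at their bound, against -0.01 over all genes, and 13 were higher with the Eif2s3y covariate. Thrsp, a nuclear protein tied to lipogenesis, had levels of 4.78, 4.71 and 5.45 in wild-type and 10.92, 11.40 and 12.38 in Alb-Cre livers, against an EGFP range of 11.64 to 12.78 (median 12.16). The groups did not overlap, the wild-type arrays lay below every EGFP array, and the difference was 6.58 ± 0.32 (95.9-fold, adjusted p = 3.91e-09). Scd1, the desaturase that makes oleate, was at 5.82, 6.16 and 5.69 in wild-type and 12.93, 9.44 and 12.50 in Alb-Cre livers (5.74 ± 0.59, adjusted p = 6.49e-06), with Alb-Cre replicate 2 the lowest of its group. Srebf1 was at 5.28, 5.27 and 5.32 in wild-type and 7.99, 8.02 and 8.63 in Alb-Cre livers (2.93 ± 0.21, adjusted p = 1.25e-07), and Mlxipl at 8.42, 7.86 and 8.24 in wild-type and 10.21, 9.48 and 9.91 in Alb-Cre livers (1.69 ± 0.18, adjusted p = 7.57e-06). For both factors every Alb-Cre array lay above every wild-type array. Fasn, the fatty acid synthase itself, was detected on no wild-type IL-13 array and stood at 5.12, 4.70 and 4.97 in Alb-Cre livers, at least 1.38-fold higher, a difference that missed the threshold (adjusted p = 0.0814).

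Sugar-handling genes went both ways. Pklr, the liver pyruvate kinase, was at 5.13, 5.72 and 5.16 in wild-type and 6.99, 7.55 and 7.53 in Alb-Cre livers (2.02 ± 0.22, adjusted p = 1.03e-05). Khk, which phosphorylates fructose, was at 11.02, 10.31 and 10.36 in wild-type and 12.15, 12.34 and 12.14 in Alb-Cre livers (1.65 ± 0.17, adjusted p = 6.28e-06), so that the 3 Alb-Cre values lay close to the EGFP median of 12.14. Slc2a1, the glucose transporter GLUT1 that hepatocytes normally hold low, was lower in Alb-Cre livers, at 7.32, 7.68 and 7.25 against 9.06, 9.21 and 8.75 (-1.59 ± 0.15, adjusted p = 1.97e-06). In the glucose metabolism list 9 of 22 tested genes were higher and 5 lower, and 10 and 4 with the Eif2s3y covariate.

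Cholesterol synthesis was higher across nearly its whole measured list. 16 of 18 tested genes (88.9%) were higher in Alb-Cre livers and 0 lower, with a median difference of 1.88 (1.97 within slide 1 and 1.49 within slide 2). With the Eif2s3y covariate 6 of the 18 were called, all higher, and the median was 1.52. Dhcr7, which makes cholesterol from its last precursor, was at 5.29, 6.19 and 5.53 in wild-type and 8.95, 7.33 and 8.35 in Alb-Cre livers (2.54 ± 0.30, adjusted p = 2.43e-05). Pmvk, the kinase that follows mevalonate kinase, differed by 2.000 ± 0.26 (adjusted p = 6.33e-05), Sc5d, a late desaturase, by 1.89 ± 0.18 (adjusted p = 3.46e-06) and Tm7sf2, a sterol reductase, by 1.90 ± 0.24 (adjusted p = 3.79e-05). For these 4 genes Alb-Cre replicate 2 had the lowest value of its group and still lay above every wild-type array.

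Most tested genes of fatty acid oxidation, many of them targets of the nuclear receptor PPARα, were lower in Alb-Cre livers. 19 of 28 tested genes (67.9%) were lower and 0 higher, with a median of -0.82 (-1.02 within slide 1 and -0.62 within slide 2), and 15 were lower with the Eif2s3y covariate. Cyp4a14 was at 13.71, 13.02 and 12.78 in wild-type and 4.87, 8.53 and 7.23 in Alb-Cre livers, against an EGFP range of 6.88 to 9.72 (median 8.76). All wild-type arrays exceeded the EGFP range, whereas the Alb-Cre arrays were spread from below to within it, and the difference was -6.29 ± 0.73 (adjusted p = 2.2e-05). Its relative Cyp4a31 differed by -4.08 ± 0.36 (adjusted p = 1.5e-06). The 2 genes belong to a family of near-identical copies, so their probes may share signal. Acot1, a cytosolic acyl-CoA thioesterase, was at 12.48, 11.75 and 11.94 in wild-type and 7.70, 8.65 and 8.91 in Alb-Cre livers (-3.63 ± 0.30, adjusted p = 7.46e-07). Pdk4, the kinase that shuts pyruvate dehydrogenase in fasting, was at 8.22, 9.16 and 9.75 in wild-type and 4.93, 4.84 and 5.38 in Alb-Cre livers (-3.99 ± 0.38, adjusted p = 2.57e-06). Fgf21, the hepatic fasting hormone, was at 8.46, 9.85 and 8.09 in wild-type and 4.60, 5.65 and 4.86 in Alb-Cre livers (-3.76 ± 0.36, adjusted p = 3.17e-06). The transcript of the receptor, Ppara, did not pass the threshold at 0.45 ± 0.19 (95% interval 0.06 to 0.84, adjusted p = 0.0991).

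Lipid droplet genes were mixed, with 7 of 18 tested genes lower, 2 higher and a median of -0.28. With the Eif2s3y covariate 4 were lower and 0 higher. Cidec, which fuses droplets, was at 8.71, 8.81 and 7.63 in wild-type and 4.28, 5.13 and 4.99 in Alb-Cre livers, and at 4.19 to 4.89 (median 4.42) over the EGFP arrays (-3.58 ± 0.27, adjusted p = 2.3e-07). Plin2, the main droplet coat protein, differed by -1.99 ± 0.26 (adjusted p = 5.05e-05) and Pnpla2, the triglyceride lipase ATGL, by -1.62 ± 0.14 (adjusted p = 9.76e-07). Apoa4, a lipoprotein component, was at 13.51, 13.81 and 13.26 in wild-type and 10.19, 9.72 and 9.81 in Alb-Cre livers (-3.62 ± 0.19, adjusted p = 9.54e-09), and its wild-type levels lay above every EGFP array.

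**Figure D2:**
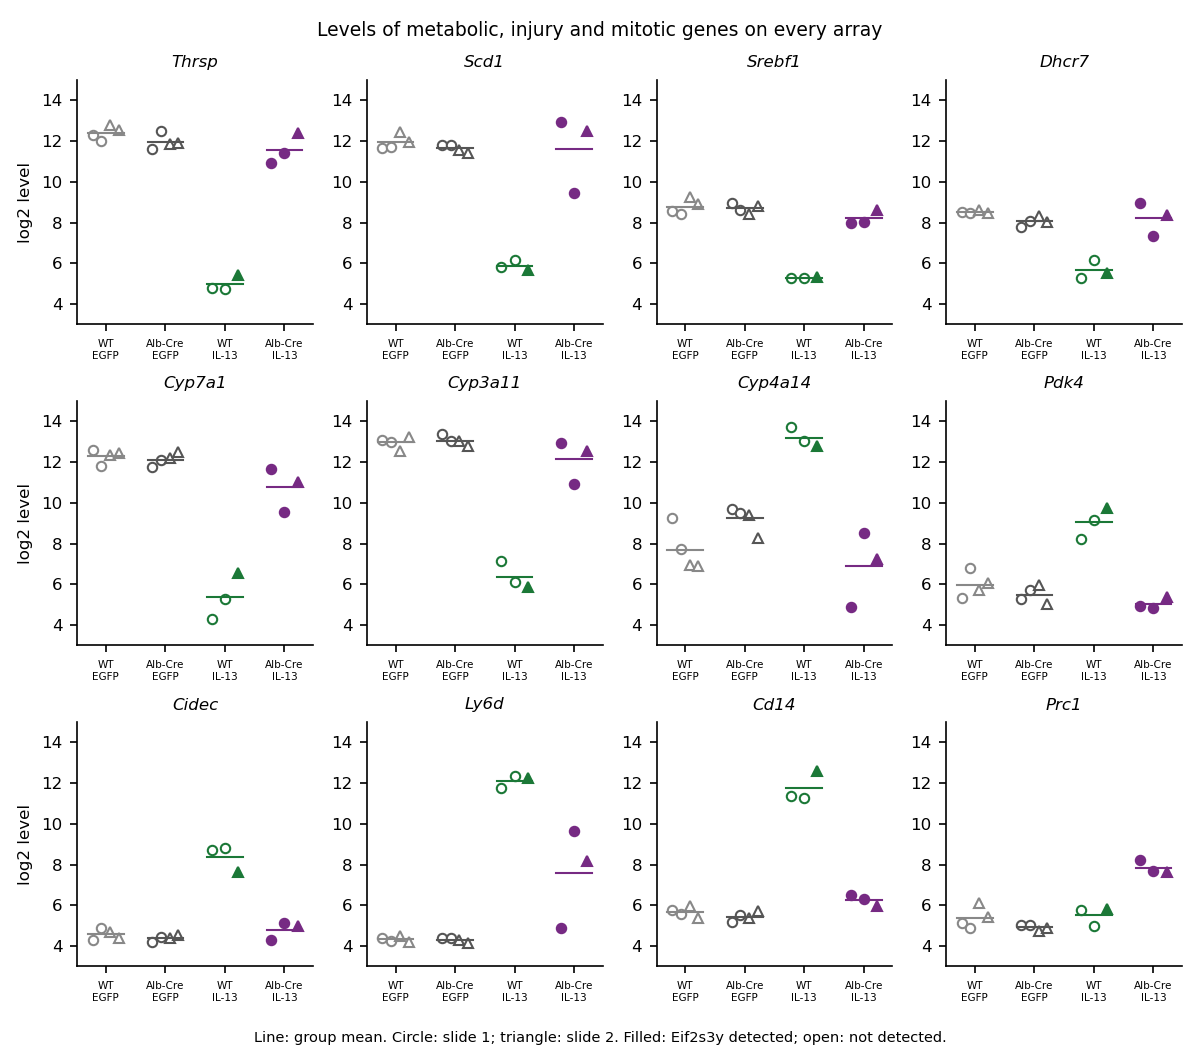
Log2 level of 12 genes on all 14 arrays, by group along the horizontal axis (n = 4, 4, 3 and 3); lines are group means, circles and triangles are slides 1 and 2, and filled symbols are arrays on which Eif2s3y was detected. For every gene shown the Alb-Cre and wild-type IL-13 arrays did not overlap, and the filled triangle of wild type, replicate 3, lay with the open wild-type symbols.

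The enzymes that make bile acids from cholesterol were among the genes with the greatest differences. Cyp7a1, whose enzyme limits the rate at which bile acids are made, was at 4.31, 5.27 and 6.54 in wild-type and 11.68, 9.56 and 11.03 in Alb-Cre livers, against an EGFP range of 11.74 to 12.57 (median 12.26). Every Alb-Cre array lay above every wild-type array and below every EGFP array, and the difference was 5.38 ± 0.49 (41.7-fold, adjusted p = 1.98e-06). Cyp8b1, the enzyme that commits precursors to cholic acid, was at 4.61, 5.64 and 5.73 in wild-type and 11.89, 9.49 and 11.89 in Alb-Cre livers (5.77 ± 0.46, adjusted p = 4.3e-07), and Akr1c6, a hydroxysteroid dehydrogenase, differed by 2.27 ± 0.24 (adjusted p = 6.83e-06). Over the synthesis list 6 of 16 tested genes were higher and 2 lower, with a median of 0.13 (0.06 with undetected genes at their bound), and 4 and 1 with the Eif2s3y covariate. Among bile acid transport and regulation genes 1 of 18 was higher and 3 were lower (5.56% and 16.7%, against 10.7% and 11.2% of all genes). The median of that list was -0.004, and -0.03 with the Eif2s3y covariate. Abcb11, the bile salt export pump, was the one higher (1.79 ± 0.32, adjusted p = 0.00093). Abcb4, which exports phosphatidylcholine into bile, was lower (-0.99 ± 0.19, adjusted p = 0.00139) but not called with the Eif2s3y covariate (-0.78, adjusted p = 0.0623).

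The drug-metabolising cytochromes P450 that were called were mostly higher in Alb-Cre livers, with 14 of 27 tested genes (51.9%) higher, 2 lower and a median of 0.50, and 10 and 1 with the Eif2s3y covariate. Cyp3a11, a main drug-oxidising P450 of mouse liver, was at 7.16, 6.13 and 5.85 in wild-type and 12.96, 10.92 and 12.52 in Alb-Cre livers (5.76 ± 0.41, adjusted p = 1.25e-07). Cyp1a2, known for caffeine oxidation, was at 5.72, 6.23 and 6.29 in wild-type and 10.70, 10.19 and 11.25 in Alb-Cre livers (4.63 ± 0.21, adjusted p = 3.65e-09). Cyp2c29 was at 4.70, 4.76 and 4.57 in wild-type and 9.02, 7.74 and 9.13 in Alb-Cre livers (3.95 ± 0.26, adjusted p = 7.94e-08). In all 3 genes the wild-type arrays lay below every EGFP array. Cyp2b10, the classic target of the nuclear receptor CAR, was detected on no wild-type IL-13 array and at 8.96, 5.25 and 8.64 in Alb-Cre livers, at least 8.9-fold higher (adjusted p = 0.00599), with an adjusted p of 0.0713 with the Eif2s3y covariate. Nr1i3, which encodes CAR, was lower (-0.84 ± 0.20, adjusted p = 0.00646), and its call was lost with that covariate (-0.60, adjusted p = 0.172). Among conjugating enzymes 12 of 36 were higher and 1 lower (15 and 1 with the covariate). The glycosyltransferase Ugt3a1 differed by 3.51 ± 0.23 (adjusted p = 5.27e-08) and Ugt2b1 by 1.72 ± 0.20 (adjusted p = 2.2e-05). The glutathione transferase Gstt2 was the one lower (-1.74 ± 0.22, adjusted p = 4.29e-05).

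Several other hepatocyte genes had differences as large. Car3 was detected on no wild-type IL-13 array and stood at 11.04, 10.24 and 12.63 in Alb-Cre livers, against 11.79 to 12.74 (median 12.29) over the EGFP arrays, at least 114-fold higher (adjusted p = 2.09e-08). Upp2, the liver uridine phosphorylase, was at 5.19, 4.37 and 5.45 in wild-type and 9.03, 8.27 and 10.16 in Alb-Cre livers (4.15 ± 0.37, adjusted p = 1.37e-06). Serpina6, which encodes corticosteroid-binding globulin, was at 7.997, 7.21 and 7.16 in wild-type and 10.20, 12.89 and 11.91 in Alb-Cre livers (4.22 ± 0.45, adjusted p = 1.04e-05), and here Alb-Cre replicate 2 was the highest of its group. Ces3b, a carboxylesterase, was at 5.19, 4.999 and 7.58 in wild-type and 11.60, 8.37 and 10.98 in Alb-Cre livers (4.39 ± 0.69, adjusted p = 0.000315), with wild-type replicate 3 above the other wild-type arrays and its difference 2.74 with the Eif2s3y covariate (adjusted p = 0.0341).

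Most tested genes known to be higher in male than in female mouse liver were higher in Alb-Cre livers, all 3 of which had Eif2s3y detected, as had wild-type replicate 3 alone of its group. In mouse liver this bias is set largely by the pattern of growth hormone release. 17 of 28 tested male-biased genes (60.7%) were higher and 1 lower, with a median of 1.48 (1.45 within slide 1 and 1.04 within slide 2). With the Eif2s3y covariate 10 were higher and 1 lower, with a median of 0.83. The mean level of the list per array lay between 7.35 and 8.40 in wild-type and between 9.19 and 9.75 in Alb-Cre livers under IL-13. Under EGFP it lay between 7.50 and 7.81 in wild-type and between 7.55 and 8.27 in Alb-Cre livers. Of 26 tested female-biased genes 9 were lower and 3 higher (2 and 0 with the covariate), with a median of -0.16 (-0.001 with undetected genes at their bound). That list also holds Cyp4a14 and Cyp2b10.

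**Figure D3:**
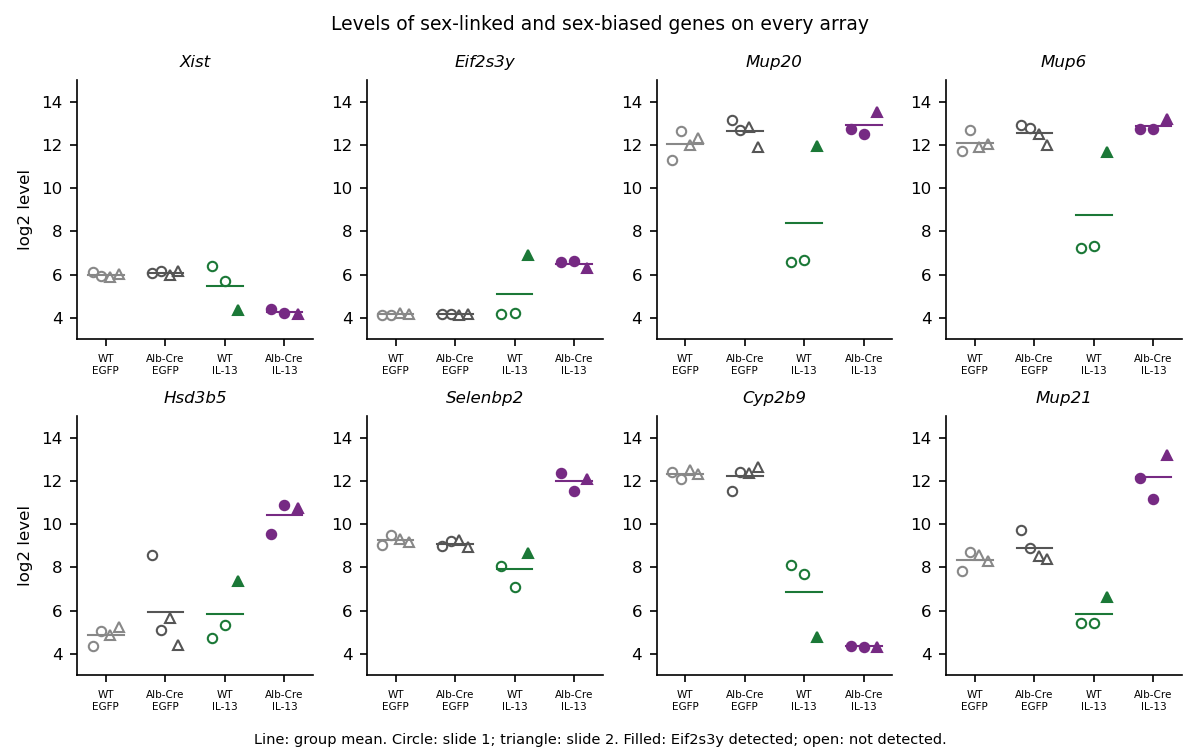
Log2 level of 2 sex-linked and 6 sex-biased liver genes on all 14 arrays by group (n = 4, 4, 3 and 3), with lines at group means, circles and triangles for slides 1 and 2, and filled symbols where Eif2s3y was detected. Wild-type IL-13 replicate 3, the filled green triangle, lies near the Alb-Cre IL-13 arrays for Mup20 and Cyp2b9 and near the other wild-type arrays for Selenbp2 and Mup21.

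Single genes of this group differed in how near wild-type replicate 3 lay to the Alb-Cre arrays, which the plot of sex-linked and sex-biased genes shows. Mup20, a male pheromone-binding major urinary protein, was at 6.59, 6.66 and 11.96 in wild-type and 12.74, 12.50 and 13.52 in Alb-Cre livers (4.52 ± 0.97, adjusted p = 0.00337). Wild-type replicate 3 lay beside the Alb-Cre arrays, and with the Eif2s3y covariate the difference was 0.96 (adjusted p = 0.221). Mup6 was at 7.23, 7.33 and 11.65 in wild-type and 12.75, 12.73 and 13.19 in Alb-Cre livers (4.15 ± 0.78, adjusted p = 0.00138, and 1.24 with an adjusted p of 0.03 in that fit), and Mup5 differed by 4.64 ± 0.75 (adjusted p = 0.000407, and 2.12 with an adjusted p of 0.0225). Mup genes are near-identical copies, so their probes may share signal. Mup21 was at 5.42, 5.40 and 6.64 in wild-type and 12.15, 11.18 and 13.18 in Alb-Cre livers, with a difference of 6.35 ± 0.45 (adjusted p = 1.25e-07) and of 5.53 with the covariate (adjusted p = 2.44e-05). Its Alb-Cre levels lay above and its wild-type levels below every EGFP array. Selenbp2, a selenium-binding protein, showed the same order at 8.08, 7.08 and 8.66 in wild-type and 12.36, 11.53 and 12.07 in Alb-Cre livers (4.04 ± 0.29, adjusted p = 1.42e-07, and 3.32 with an adjusted p of 1.83e-05). Hsd3b5, a male-biased steroid dehydrogenase, was at 4.75, 5.33 and 7.38 in wild-type and 9.55, 10.90 and 10.76 in Alb-Cre livers (4.59 ± 0.82, adjusted p = 0.00093), but was not called with the covariate (3.03, adjusted p = 0.071). The complement component C6 differed by 2.48 ± 0.35 (adjusted p = 0.000136). Cyp2b9, a female-biased P450, was at 8.09, 7.70 and 4.76 in wild-type livers and detected on no Alb-Cre IL-13 array, at least 5.16-fold lower (adjusted p = 0.00531), with -0.41 in the covariate fit (adjusted p = 0.431).

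The genes that IL-13 is best known to induce in macrophages were lower in Alb-Cre livers in most, but not all, cases. Of 15 tested type 2 immune genes 10 (66.7%) were lower and 0 higher, with a median of -1.29 (-1.04 within slide 1 and -1.22 within slide 2, and -1.15 over both with undetected genes at their bound), and 9 were lower with the Eif2s3y covariate. Chil3, the chitinase-like protein Ym1 of alternatively activated macrophages, was at 11.71, 11.91 and 12.10 in wild-type and 9.06, 7.73 and 7.20 in Alb-Cre livers, against 4.10 to 4.40 (median 4.14) over the EGFP arrays (-3.91 ± 0.31, adjusted p = 3.6e-07). The Alb-Cre arrays lay below every wild-type array and above every EGFP array. Ccl11, the eosinophil attractant eotaxin, was at 9.52, 10.35 and 10.50 in wild-type and 7.57, 8.20 and 7.51 in Alb-Cre livers (-2.36 ± 0.22, adjusted p = 2.41e-06). Ch25h, which makes 25-hydroxycholesterol, was at 6.76, 6.81 and 7.03 in wild-type and 4.64, 4.70 and 4.78 in Alb-Cre livers (-2.16 ± 0.10, adjusted p = 3.65e-09). The macrophage lectins Mrc1 and Mgl2 differed by -1.95 ± 0.12 (adjusted p = 5.27e-08) and -2.04 ± 0.12 (adjusted p = 2.09e-08), with Mrc1 at 11.27, 11.33 and 11.37 in wild-type and 9.51, 9.40 and 9.22 in Alb-Cre livers.

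Retnla, another signature gene of alternatively activated macrophages, was high in both genotypes. Its level was 12.39, 12.24 and 11.80 in wild-type and 11.79, 12.01 and 11.16 in Alb-Cre livers, while the EGFP range was 4.23 to 4.32 (median 4.28), and the genotype difference of -0.49 ± 0.18 missed the threshold (95% interval -0.87 to -0.11, adjusted p = 0.0618). Arg1, the arginase that hepatocytes hold at a high level for the urea cycle, differed by -0.37 ± 0.14 (95% interval -0.67 to -0.07, adjusted p = 0.076), and the chemokine Ccl24 by -0.53 ± 0.27 (95% interval -1.10 to 0.05, adjusted p = 0.191).

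**Figure D4:**
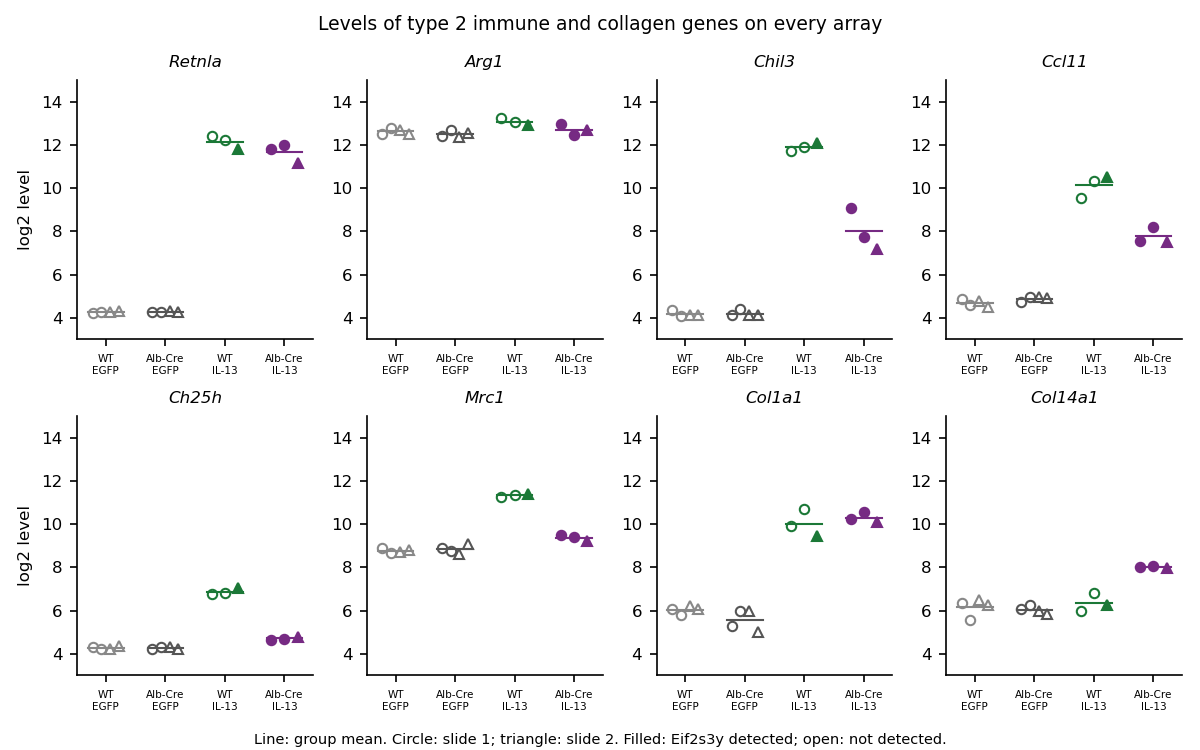
Log2 level of 6 type 2 immune genes and 2 collagens on all 14 arrays by group (n = 4, 4, 3 and 3), drawn with group means as lines, slides 1 and 2 as circles and triangles, and filled symbols where Eif2s3y was detected. Chil3, Ccl11, Ch25h and Mrc1 were lower in Alb-Cre than in wild-type livers under IL-13, Retnla and Arg1 were not called, and Col14a1 but not Col1a1 was called higher.

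In the IL-13 signalling list 4 of 18 tested genes were lower and 1 higher, against 11.2% and 10.7% of all genes, and the same numbers with the Eif2s3y covariate. Irs2, an adaptor of the insulin and IL-4 receptors, was at 8.27, 7.97 and 9.01 in wild-type and 6.13, 5.94 and 6.41 in Alb-Cre livers (-2.26 ± 0.29, adjusted p = 4.52e-05). Socs2, a feedback inhibitor of cytokine and growth hormone signalling, differed by -1.87 ± 0.41 (adjusted p = 0.00404), a call that slide 1 alone did not give. The kinases Jak2 (-0.48 ± 0.13, adjusted p = 0.014) and Tyk2 (0.42 ± 0.11, adjusted p = 0.0146) differed in opposite directions. The Jak2 call was lost without wild-type replicate 2 (adjusted p = 0.0554), and the Tyk2 call without wild-type replicate 3 (adjusted p = 0.0535), without Alb-Cre replicate 1 (adjusted p = 0.0641) and with the mean of the gene's probes (adjusted p = 0.169). Of the other feedback inhibitors, Socs3 was not called (-1.14 ± 0.40, 95% interval -1.98 to -0.29, adjusted p = 0.0523) but was called lower with the Eif2s3y covariate (-1.98, adjusted p = 0.0153). Cish (-0.62 ± 0.25, adjusted p = 0.0902) and Socs1 (-0.09 ± 0.13, adjusted p = 0.699) were not called. Nor were the receptor chains Il13ra1 (-0.14 ± 0.23, 95% interval -0.63 to 0.34) and Il13ra2 (0.20 ± 0.14, 95% interval -0.11 to 0.50), the decoy receptor, or the factor Stat6 (0.02 ± 0.13, 95% interval -0.27 to 0.30). Il13ra2 was above the EGFP range in both genotypes, at 5.84, 6.49 and 6.19 in wild-type and 6.45, 6.54 and 6.13 in Alb-Cre livers against 4.14 to 4.26 (median 4.23).

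STAT6 is known to bind TTC, 4 bases of any kind, then GAA, and other STATs the form with 3 bases between. Both palindromes were searched in the 250 bases before the first listed start of each gene in RefSeq (GRCm38.p6); being palindromes they read alike on both strands, and 1 TTC and GAA pair cannot match both forms. The 4-base form was in 5.86% of all listed promoters and in 4.46% of the 7878 tested genes with a listed promoter. It was in 5.47% of genes called higher and 4.02% of genes called lower, and in 7.25% and 3.91% of those called at least 2-fold higher and lower. For the 3-base form the shares were 6.03% of tested genes, 5.71% of those called higher and 6.2% of those called lower. The stretches printed here surround the 4-base form in Retnla and in the 3 genes that hold it among the 20 with a promoter in the RefSeq table, of the 30 genes with the greatest differences (15 in each direction), namely Hsd3b5, Mup6 and Aoc1, with the match in capitals. They are shown because Retnla is the gene high in both genotypes, whereas the others are higher (Hsd3b5, Mup6) or lower (Aoc1, a diamine oxidase, -2.59 ± 0.19, adjusted p = 1.25e-07) in Alb-Cre livers. A match describes the letters only and is no evidence of binding. The stretches lie at chr16:48842439-48842498 for Retnla, chr3:98645703-98645762 for Hsd3b5, chr4:60003231-60003296 for Mup6 and chr6:48895019-48895078 for Aoc1, on the minus strand for Hsd3b5 and the plus strand for the others.
Retnla: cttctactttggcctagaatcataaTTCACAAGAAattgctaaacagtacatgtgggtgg
Hsd3b5: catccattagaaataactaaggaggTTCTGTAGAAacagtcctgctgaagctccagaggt
Mup6: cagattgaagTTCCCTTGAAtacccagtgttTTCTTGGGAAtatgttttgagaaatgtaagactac
Aoc1: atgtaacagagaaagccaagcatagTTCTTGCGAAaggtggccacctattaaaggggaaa

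Matrix genes differed between the genotypes in part. Col1a1, a chief fibrillar collagen of scar, was at 9.90, 10.71 and 9.47 in wild-type and 10.24, 10.56 and 10.08 in Alb-Cre livers, against an EGFP range of 5.01 to 6.22 (median 5.99), and the difference of 0.27 ± 0.29 did not pass the threshold (95% interval -0.34 to 0.88, adjusted p = 0.577). Col3a1, its usual partner in fibrils, was at 8.20, 9.17 and 8.36 in wild-type and 9.04, 9.09 and 8.89 in Alb-Cre livers, against 4.59 to 5.69 (median 5.32) (0.43 ± 0.24, 95% interval -0.09 to 0.95, adjusted p = 0.241). For both collagens all IL-13 arrays of either genotype lay above every EGFP array and the genotypes overlapped. Neither Col6a2 (-0.47 ± 0.17, 95% interval -0.84 to -0.10) nor the cross-linking enzyme Lox (-0.19 ± 0.16, 95% interval -0.53 to 0.14) was called. In the matrix list 7 of 25 tested genes were higher and 2 lower (28% and 8%, against 10.7% and 11.2% of all genes). The list median was 0.27, and 0.49 with the Eif2s3y covariate. Col14a1, a collagen that sits on fibrils, was at 5.995, 6.82 and 6.27 in wild-type and 8.03, 8.06 and 7.95 in Alb-Cre livers (1.65 ± 0.22, adjusted p = 6.77e-05), and lumican (Lum), a fibril-spacing proteoglycan, at 11.25, 11.56 and 11.14 in wild-type and 10.43, 9.60 and 9.61 in Alb-Cre livers (-1.44 ± 0.22, adjusted p = 0.000297).

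Matrix enzymes also went both ways, with 6 of 21 higher and 3 lower, and 3 and 2 with the Eif2s3y covariate, against 10.7% and 11.2% of all genes in the fit without it. Serpinh1, the collagen chaperone HSP47, differed by 1.33 ± 0.15 (adjusted p = 1.96e-05) and the collagenase Mmp13 by 1.77 ± 0.21 (adjusted p = 2.37e-05). The membrane protease Mmp14 (-1.25 ± 0.16, adjusted p = 5.9e-05) and the protease inhibitor Timp1 (-1.12 ± 0.16, adjusted p = 0.000115) were lower. Of 16 tested stellate cell and myofibroblast genes 1 was higher and 3 were lower (6.25% and 18.8%, against 10.7% and 11.2% of all genes). Their median was 0.05, and 0.10 with the Eif2s3y covariate. Reln, made by quiescent stellate cells, was at 7.28, 8.19 and 7.59 in wild-type and 10.63, 10.55 and 10.65 in Alb-Cre livers (2.92 ± 0.19, adjusted p = 5.73e-08), and the Alb-Cre values fell in the EGFP range of 10.35 to 10.91 (median 10.60). Cygb, the stellate globin, was at 10.36, 10.11 and 9.67 in wild-type and 8.84, 7.73 and 7.81 in Alb-Cre livers (-1.92 ± 0.25, adjusted p = 7.01e-05), and Pdgfra, a receptor for platelet-derived growth factor, differed by -1.28 ± 0.18 (adjusted p = 0.000104).

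Injury genes were lower in Alb-Cre livers where they were called. Of 24 tested genes of injury, fetal liver and ductular reaction 8 (33.3%) were lower and 0 higher, with a median of -0.27, and 6 with the Eif2s3y covariate. Ly6d, a small membrane-anchored surface protein, was at 11.78, 12.33 and 12.25 in wild-type and 4.91, 9.65 and 8.16 in Alb-Cre livers, against 4.15 to 4.51 (median 4.35) over the EGFP arrays (-4.55 ± 0.73, adjusted p = 0.000373). The Alb-Cre livers differed widely among themselves for this gene, and all stayed below the wild-type arrays. Sox9, a factor of duct cells and injured hepatocytes, differed by -1.01 ± 0.18 (adjusted p = 0.000945), the TWEAK receptor Tnfrsf12a by -1.28 ± 0.24 (adjusted p = 0.00121) and the tetraspanin Cd63 by -1.14 ± 0.18 (adjusted p = 0.000314). The duct keratin Krt7 was detected on 1 wild-type and 0 Alb-Cre IL-13 arrays and was not called (adjusted p = 0.483).

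Acute phase and endotoxin genes were led by Cd14, the lipopolysaccharide co-receptor. Its level was 11.36, 11.27 and 12.58 in wild-type and 6.50, 6.29 and 5.95 in Alb-Cre livers, while the EGFP range was 5.17 to 5.95 (median 5.55), and the difference was -5.49 ± 0.27 (44.9-fold, adjusted p = 5.07e-09). The Alb-Cre arrays lay at or just above the EGFP range, and all wild-type arrays far above it. Lbp, which hands lipopolysaccharide to Cd14, differed by -1.32 ± 0.30 (adjusted p = 0.00548), though slide 1 alone did not call it, and the protease inhibitor Serpina3n by -0.71 ± 0.13 (adjusted p = 0.00106). Il1b, an inflammatory cytokine, was higher in Alb-Cre livers (1.496 ± 0.29, adjusted p = 0.00159) but not with the Eif2s3y covariate (0.87, adjusted p = 0.115). Saa1 was spread over 5.47, 5.64 and 8.64 in wild-type and 9.45, 6.16 and 7.51 in Alb-Cre livers and was not called (1.13 ± 0.85, adjusted p = 0.396). Of 26 tested genes of the list 5 were lower and 2 higher, with a median of -0.34 (-0.01 within slide 1 and -1.01 within slide 2). With the Eif2s3y covariate 7 were lower and 0 higher, with a median of -0.50.

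Stress genes that were called were mostly lower in Alb-Cre livers. 10 of 28 tested stress genes (35.7%) were lower and 3 higher (7 and 1 with the Eif2s3y covariate), with a median of -0.27. Psat1, of serine synthesis, was at 8.10, 8.88 and 7.30 in wild-type and 4.66, 6.03 and 5.60 in Alb-Cre livers (-2.66 ± 0.32, adjusted p = 3.1e-05), and Asns, the asparagine synthetase induced by the factor ATF4, at 9.29, 9.50 and 9.01 in wild-type and 5.90, 8.29 and 6.89 in Alb-Cre livers (-2.24 ± 0.38, adjusted p = 0.000549). The pseudokinase Trib3 differed by -1.44 ± 0.16 (adjusted p = 1.52e-05). Mitochondrial Shmt2 was one of the genes higher (0.76 ± 0.14, adjusted p = 0.00101).

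**Figure D5:**
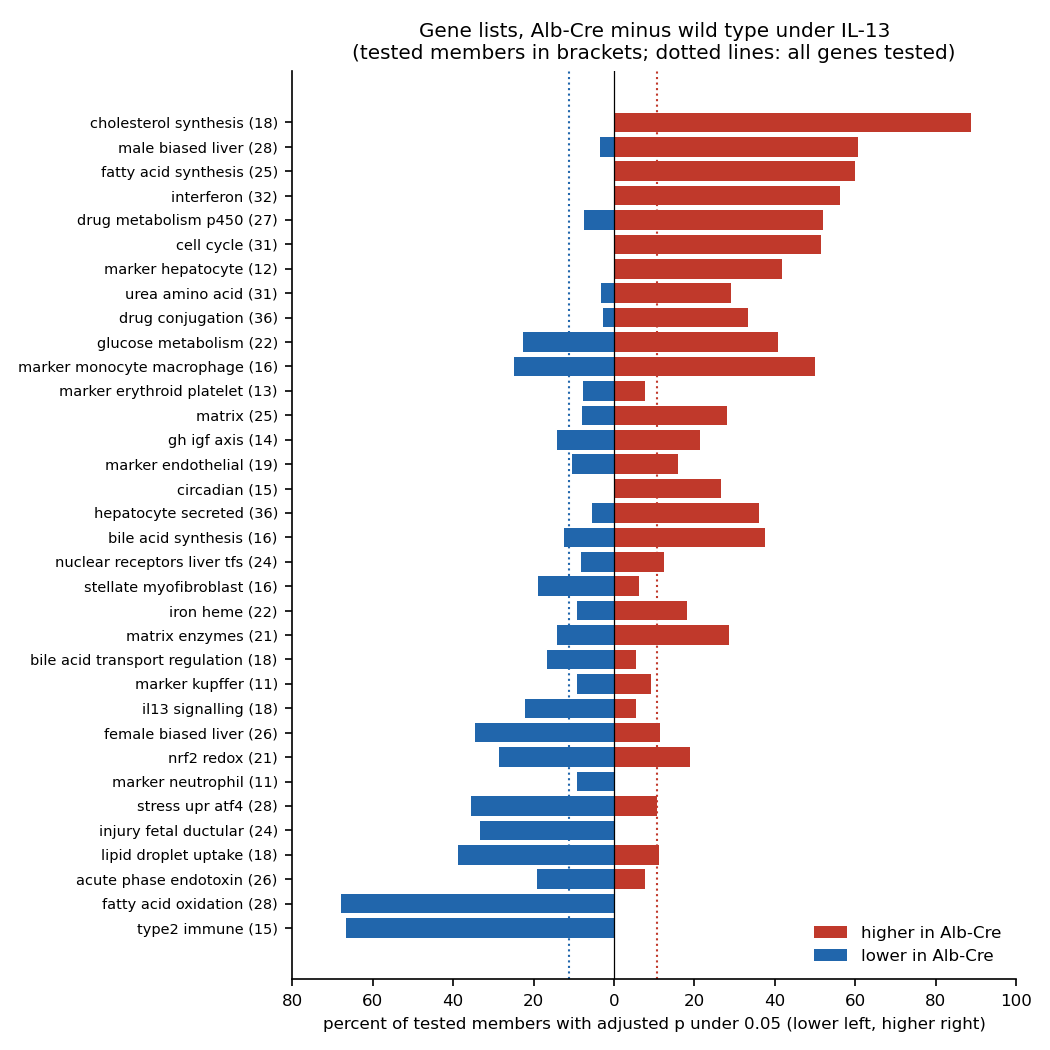
Percent of the tested members of each gene list (number in brackets) called higher (right, red) or lower (left, blue) in Alb-Cre than in wild-type livers under IL-13, for lists with 10 or more tested members, ordered by median difference. Dotted lines give the share of all 9711 genes, 10.7% higher and 11.2% lower; cholesterol synthesis reaches 88.9% higher and fatty acid oxidation 67.9% lower.

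The mitotic genes that were called were all higher in Alb-Cre livers. 16 of 31 tested cell cycle genes (51.6%) were higher and 0 lower, with a median of 0.49 (0.45 within slide 1 and 0.44 within slide 2), and 12 were higher with the Eif2s3y covariate. Prc1, which organises the spindle midzone, was at 5.75, 4.99 and 5.80 in wild-type and 8.24, 7.68 and 7.66 in Alb-Cre livers, against 4.75 to 6.11 (median 5.04) over the EGFP arrays (2.34 ± 0.27, adjusted p = 1.91e-05). The Alb-Cre arrays lay above all others and the wild-type IL-13 arrays within the EGFP range. Birc5, or survivin, differed by 1.35 ± 0.15 (adjusted p = 1.24e-05), the topoisomerase Top2a by 1.25 ± 0.15 (adjusted p = 3.67e-05) and the centromere histone Cenpa by 1.39 ± 0.18 (adjusted p = 4.9e-05). Which cells held these transcripts was not tested.

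The interferon-induced genes called were likewise higher, 18 of 32 tested (56.2%), with 0 lower and a median of 0.53 (0.59 within slide 1 and 0.64 within slide 2), and in 13 with the Eif2s3y covariate. Oas2, an antiviral RNA sensor, was at 4.87, 4.67 and 4.62 in wild-type and 6.29, 5.87 and 6.51 in Alb-Cre livers (1.502 ± 0.16, adjusted p = 6.83e-06). Ifit3 was at 5.005, 4.85 and 4.82 in wild-type and 6.59, 6.22 and 7.22 in Alb-Cre livers (1.79 ± 0.26, adjusted p = 0.000146), and Ifi27 differed by 1.71 ± 0.20 (adjusted p = 2.69e-05). For Oas2 and Ifit3 the wild-type arrays lay below the EGFP ranges of 5.89 to 6.55 (median 6.42) and 7.08 to 8.23 (median 7.93).

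Proteins that hepatocytes secrete were partly higher, in 13 of 36 tested genes against 2 lower, but with the Eif2s3y covariate 2 were higher and 1 lower. Albumin (Alb), whose promoter drives the Cre, was at 8.54, 8.12 and 8.89 in wild-type and 9.76, 9.38 and 9.72 in Alb-Cre livers (1.10 ± 0.22, adjusted p = 0.0018, and 0.73 with an adjusted p of 0.103 with the covariate). Serpina1a, an antitrypsin from a family of near-identical copies, differed by 1.97 ± 0.30 (adjusted p = 0.000235), and coagulation factor F11 by 1.42 ± 0.25 (adjusted p = 0.00093, and 0.0675 with the covariate). Amino acid and urea cycle genes were higher in 9 of 31 and lower in 1 (4 and 0 with the covariate). The tryptophan-degrading enzymes Haao (1.12 ± 0.11, adjusted p = 5.79e-06) and Afmid (1.87 ± 0.26, adjusted p = 9.26e-05) were among those higher.

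The growth hormone axis had 3 of 14 genes higher and 2 lower (21.4% and 14.3%, against 10.7% and 11.2% of all genes). The list median was 0.23, and -0.10 with the Eif2s3y covariate. Igfals, the liver protein that stabilises circulating IGF-1, was at 8.32, 8.10 and 8.43 in wild-type and 10.54, 10.32 and 10.57 in Alb-Cre livers (2.19 ± 0.13, adjusted p = 2.09e-08). The receptor Ghr differed by 0.76 ± 0.19 (adjusted p = 0.00889), a call not made from slide 1 alone. Igfbp1, an IGF-binding protein induced by fasting and injury, was at 6.24, 5.67 and 7.93 in wild-type livers and detected on no Alb-Cre IL-13 array, at least 4.38-fold lower (adjusted p = 0.000861). Clock genes were higher in 4 of 15 and lower in 0 (26.7% and 0%, against 10.7% and 11.2% of all genes), with a list median of 0.19. Among those higher were Dbp (1.74 ± 0.33, adjusted p = 0.00142), Per2 (1.19 ± 0.27, adjusted p = 0.0045) and Ciart (1.504 ± 0.34, adjusted p = 0.00457). Slide 1 alone called neither Dbp nor Per2. With replicate number as a block the calls of Per2 (adjusted p = 0.106) and Ciart (adjusted p = 0.0597) were lost. The hour of killing is not given in the labels. Redox genes were higher in 4 of 21 and lower in 6 (19% and 28.6%, against 10.7% and 11.2% of all genes). The median of the redox list was -0.17, and -0.04 with the Eif2s3y covariate. The haem oxygenase Hmox1 differed by -1.58 ± 0.22 (adjusted p = 0.000113) and catalase, Cat, by 1.31 ± 0.17 (adjusted p = 5.05e-05). In the iron and haem list 4 of 22 were higher and 2 lower, and 3 and 0 with the Eif2s3y covariate, against 10.7% and 11.2% of all genes in the fit without it. Alas2, the erythroid haem enzyme, differed by 2.40 ± 0.39 (adjusted p = 0.000445), and the iron hormone Hamp was not called (-1.02 ± 0.46, 95% interval -2.000 to -0.04). Of 24 tested nuclear receptors and liver transcription factors 3 were higher and 2 lower (12.5% and 8.33%), near the 10.7% and 11.2% of all genes. Their median was 0.11, and 0.28 with the Eif2s3y covariate.

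Markers of the cell types in the tissue were counted in the same fit. Hepatocyte markers were detected at high levels on all arrays, with 5 of 12 higher and 0 lower in Alb-Cre livers (3 and 0 with the Eif2s3y covariate), and their log2 summed level lay between 16.03 and 16.12 in wild-type and between 16.26 and 16.30 in Alb-Cre livers. Among monocyte and macrophage markers 8 of 16 were higher and 4 lower, with a median difference of 0.28 (0.24 with the Eif2s3y covariate). Their summed levels, which include Chil3, lay between 13.11 and 13.42 in wild-type and between 12.76 and 12.99 in Alb-Cre livers. Their mean log2 levels overlapped, at 7.42 to 7.71 in wild-type and 7.37 to 7.77 in Alb-Cre livers. The chemokine Ccl6 was at 8.37, 8.45 and 8.58 in wild-type and 6.21, 6.15 and 5.55 in Alb-Cre livers (-2.50 ± 0.17, adjusted p = 8.57e-08), and the tetraspanin Cd9 differed by -1.36 ± 0.14 (adjusted p = 7.45e-06). Cd74, the invariant chain of MHC class II, was higher (1.13 ± 0.15, adjusted p = 6.77e-05). Of 11 Kupffer cell markers 1 was higher and 1 lower (9.09% each, against 10.7% and 11.2% of all genes). Their summed levels lay between 12.81 and 13.21 in wild-type and between 12.86 and 13.02 in Alb-Cre livers. Clec4f, the lectin specific to these cells, was at 5.60, 6.30 and 6.996 in wild-type and 8.64, 7.97 and 8.70 in Alb-Cre livers (2.14 ± 0.27, adjusted p = 4.23e-05), and the haemoglobin scavenger receptor Cd163 at 6.89, 6.94 and 6.84 in wild-type and 5.59, 5.66 and 5.08 in Alb-Cre livers (-1.45 ± 0.23, adjusted p = 0.000332). The 2 markers differed in opposite directions. The part of cell numbers in the type 2 immune genes was not tested.

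Other cell types were called in few markers. Neutrophil markers were higher in 0 and lower in 1 of 11 (9.09%), against 10.7% and 11.2% of all genes. The marker lower was Retnlg (-0.84 ± 0.24, adjusted p = 0.019). Its call was lost without wild-type replicate 2 (adjusted p = 0.0864), without Alb-Cre replicate 2 (adjusted p = 0.0663) and without Alb-Cre replicate 3 (adjusted p = 0.101). The call was also lost from slide 1 alone (adjusted p = 0.219) and with the Eif2s3y covariate, where the difference was -0.75. The list median was -0.26, and 0.04 with that covariate. The summed level of the neutrophil markers lay between 13.96 and 14.47 in wild-type and between 12.15 and 13.88 in Alb-Cre livers. Their mean log2 levels overlapped, at 6.66 to 7.21 in wild-type and 6.32 to 7.185 in Alb-Cre livers. Endothelial markers were higher in 3 and lower in 2 of 19 (15.8% and 10.5%, against 10.7% and 11.2% of all genes), and in 0 and 3 with the Eif2s3y covariate. Of these markers Vwf, the von Willebrand factor, was at 9.18, 9.62 and 10.09 in wild-type and 8.15, 8.21 and 7.95 in Alb-Cre livers (-1.53 ± 0.20, adjusted p = 6.68e-05). Of 5 cholangiocyte markers 0 were higher and 2 lower, with a median of -0.15 (-0.02 with the Eif2s3y covariate). Of 13 erythroid and platelet markers 1 was higher, Alas2, and 1 lower, the platelet chemokine Pf4 (-1.44 ± 0.15, adjusted p = 6.52e-06). Each was 7.69% of that list, against 10.7% and 11.2% of all genes. Few lymphoid, eosinophil and mast cell markers were tested: 5 of T and NK cells, 2 of B cells and 5 of eosinophils and mast cells.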

How the data were processed

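Whole-liver RNA was extracted with TRIzol and an RNeasy kit, amplified with Illumina TotalPrep and hybridised to mouse BeadChips, per the labels' protocols. The deposited tables hold probe intensity and a detection p-value per array, per the file headers. The software named in the submitters' processing notes is GenomeStudio 2011.1. The authors also deposited a log2 table, each column of which was the log2 of the product of the intensity and 1 factor per array (4.525 to 4.855). That table was used as an alternative setting.

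Background was corrected with limma 3.58.1 in R 4.3.3, by normexp from the detection p-values (offset 16), followed by quantile normalization and log2 (neqc). Probes with detection p under 0.05 on at least 3 arrays were kept, 14109 of 25697. Those with a symbol (13274) gave 9711 genes, each represented by its brightest probe. For 643 of 644 called genes with several kept probes, no other probe was called the opposite way. For 244 of the 644 every kept probe was called the same way. RefSeq tables of GRCm38.p6 gave names for 23962 probes. Lists were described by counts and medians without a test, and a gene may be in more than 1 list.

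One mean per group was fitted over all 14 arrays (10 residual degrees of freedom), with eBayes, two-sided contrasts and Benjamini-Hochberg adjustment over all genes. Gene lists and genes were chosen with earlier results of these data known. Named genes were the 15 with the largest called, non-overlapping difference each way, up to 4 per list by p, and genes fixed by name. The code was tested on simulated data. A gene undetected on every array of a group was given a bound, from the lowest signal among detected probes or its own level, whichever was higher. The number of arrays limits the precision. Replicate numbers come from the titles, from which the descriptions depart for wild type under IL-13. Same-numbered IL-13 arrays did not deviate together.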

Additional observations from a re-analysis of the deposited data

Results flagged for a closer look

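For 99 of the 126 genes named, the genotype difference under IL-13 differed from that under EGFP. The threshold was an adjusted p under 0.05 in limma's test of the difference itself. Over all genes the share was 13.2% (1277 of 9711). Many named genes were chosen by their genotype difference under IL-13, which is part of the tested value, so a high share follows from the choice. The value given is the log2 genotype difference under IL-13 minus that under EGFP. The IL-13 arrays carry 2 kinds of sex-linked pattern and the EGFP arrays 1. The values given are from the fit without the Eif2s3y covariate. A fit with that covariate leaves only wild-type replicate 3 to set against the Alb-Cre IL-13 arrays. Beyond that fit the part of the sex-linked pattern in these values was not tested. For genes of fatty acid and sterol synthesis and sugar use it was 7.03 for Thrsp, 6.05 for Scd1, 3.00 for Srebf1, 1.75 for Mlxipl, 1.99 for Pklr, 1.69 for Khk, 2.99 for Dhcr7, 2.39 for Pmvk, 1.98 for Sc5d, 2.10 for Tm7sf2 and -1.45 for Slc2a1. Among genes of fatty acid oxidation and lipid droplets it came to -7.83 for Cyp4a14, -4.33 for Cyp4a31, -3.59 for Acot1, -3.52 for Pdk4, -4.57 for Fgf21, -3.39 for Cidec, -2.31 for Plin2, -1.56 for Pnpla2 and -3.35 for Apoa4. In the group of bile acid and drug metabolism it stood at 5.55 for Cyp7a1, 5.83 for Cyp8b1, 2.24 for Akr1c6, 1.86 for Abcb11, -1.01 for Abcb4, 5.67 for Cyp3a11, 4.63 for Cyp1a2, 4.07 for Cyp2c29, 3.71 for Cyp2b10, 3.44 for Ugt3a1, 1.68 for Ugt2b1 and -1.66 for Gstt2. For genes of sex-biased liver expression it was 5.81 for Mup21, 3.71 for Mup6, 4.00 for Mup5, 3.55 for Hsd3b5, 4.19 for Selenbp2, 2.34 for C6 and -2.42 for Cyp2b9. Among genes of type 2 immunity and its signalling it came to -3.92 for Chil3, -2.57 for Ccl11, -2.15 for Ch25h, -1.94 for Mgl2, -2.01 for Mrc1, -1.71 for Irs2 and -1.90 for Socs2. In the group of matrix and stellate cells it stood at 1.78 for Col14a1, -1.54 for Lum, 1.56 for Serpinh1, 1.85 for Mmp13, -1.17 for Mmp14, -1.07 for Timp1, 2.89 for Reln, -2.25 for Cygb and -1.01 for Pdgfra. For genes of injury, acute phase and stress it was -4.54 for Ly6d, -5.27 for Cd14, -1.48 for Lbp, -0.90 for Cd63, -0.81 for Sox9, -1.33 for Tnfrsf12a, -0.72 for Serpina3n, 1.61 for Il1b, -2.70 for Psat1, -2.45 for Asns, -1.85 for Trib3 and 0.87 for Shmt2. Among genes of the cell cycle and the interferon response it came to 2.81 for Prc1, 1.62 for Birc5, 1.39 for Top2a, 1.54 for Cenpa, 1.79 for Oas2, 1.76 for Ifi27 and 1.94 for Ifit3. In the group of cell type markers it stood at 2.15 for Clec4f, -1.78 for Cd163, -2.50 for Ccl6, -1.34 for Cd9, 1.08 for Cd74, -1.54 for Vwf and -1.23 for Pf4. Of the remaining genes named, it was 6.91 for Car3, 4.41 for Upp2, 4.45 for Serpina6, 4.51 for Ces3b, 1.31 for Alb, 2.06 for Serpina1a, 1.31 for F11, 2.25 for Igfals, -2.26 for Igfbp1, 0.94 for Ghr, 1.15 for Haao, 2.30 for Afmid, 1.56 for Dbp, 1.47 for Per2, 2.06 for Alas2, -1.42 for Hmox1, 1.43 for Cat and -2.68 for Aoc1.

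In 10 of 256 groups of 4 EGFP arrays 1 array stood apart by Dixon's test, and chance alone flags about 5% of groups. These were the log2 levels of Mlxipl on Alb-Cre EGFP replicate 1 (10.55), Fasn on Alb-Cre EGFP replicate 2 (5.52), Cyp2c29 on Alb-Cre EGFP replicate 1 (8.85), Chil3 on wild-type EGFP replicate 1 (4.36), Chil3 on Alb-Cre EGFP replicate 2 (4.40), Ccl11 on Alb-Cre EGFP replicate 1 (4.73), Socs2 on Alb-Cre EGFP replicate 1 (9.48), Stat6 on Alb-Cre EGFP replicate 3 (5.81), Cygb on wild-type EGFP replicate 3 (6.44) and Vwf on wild-type EGFP replicate 2 (5.57). The IL-13 groups hold 3 arrays each and were not tested in this way.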

How the results depend on the processing

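The 2130 calls under IL-13 became 1235 when the fit held only the 6 IL-13 arrays, 922 from slide 1 alone, 1257 with Eif2s3y detection as a covariate, 1329 without wild-type replicates 1 and 2, and 495 at a log2 difference over 1. They ranged from 1476 (without Alb-Cre replicate 3) to 2020 over the fits that left out 1 array, and from 1514 with the deposited log2 table to 2405 with array quality weights over the other settings. The titles' replicate numbers, which the data do not bear out as pairs (correlations of deviations -0.121, 0.0276 and 0.0796), gave 871 calls as a replicate block. The EGFP comparison had 0 calls in all settings, the replicate block included, with 265 to 697 genes at an unadjusted p under 0.05. The 1277 genes whose genotype differences differed between plasmids became 226 on slide 1 alone and 502 at a size over 1, and 869 (without Alb-Cre replicate 3) to 1349 with 1 array left out. Of the 1277, 50.6% were higher, against 69.8% of the 904 called with the deposited table. Fewer arrays enter the fits on slide 1, on the IL-13 arrays and with arrays left out; the cause of the other shifts was not tested. Eif2s3y turned to -0.38 with the covariate, and without wild-type replicates 1 and 2, and to -0.57 on slide 2. Of 108 named genes called, 10 lost the call on slide 1 alone, 10 with the replicate block and 6 with the deposited table. With the covariate the calls of Mup20, Hsd3b5, Cyp2b9, Cyp2b10, Alb, F11, Il1b, Abcb4, Nr1i3, Retnlg, Xist and Kdm5d were lost. That of Eif2s3y, whose sign turned, was lost as well. Both Eif2s3y-negative wild-type IL-13 arrays lie on slide 1, so slide and sex-linked pattern cannot be told apart among the wild-type IL-13 arrays. Each of the other groups lies on both slides with a single pattern, and slide as a block over all arrays gave 2222 calls under IL-13.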
